A study of Mus musculus with 28 samples.

Results

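The 10 genes described here are Hif1a, Epas1, Egln1, Egln3, Vegfa, Slc2a1, Bnip3, Ankrd37, Car9 and Epor, which belong to the response to low oxygen and to erythropoietin signalling. They were chosen by gene name and are 10 of 45513 rows of a table of gene counts from mouse heart. Ventricular myocardium of male C57BL/6 adult mice was profiled by RNA sequencing, with 1 library per mouse. All mice had surgery at 6 weeks of age, either a sham operation or 5/6 nephrectomy, which removes most kidney tissue and induces chronic kidney disease (CKD). All were fed a diet with 1% hydroxyproline and 0.5% calcium. On day 7 they were gavaged with Oxf (Oxalobacter formigenes, a gut bacterium that degrades oxalate) or with culture medium as vehicle. The 4 groups were sham-vehicle (10 mice), sham-Oxf (5), CKD-vehicle (6) and CKD-Oxf (7), where the design describes 10 mice per group. The other mice were not analysed here. Hearts were collected under ketamine/xylazine after perfusion with PBS. The question of the series is whether colonization alters cardiac remodelling in CKD.

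When oxygen is plentiful, prolyl hydroxylases of the Egln family mark the alpha subunits of the hypoxia-inducible factors (HIF), Hif1a and Epas1, and the von Hippel-Lindau ubiquitin ligase then directs them to degradation. When oxygen is scarce the subunits persist, pair with Arnt and switch on genes for glucose uptake, vessel growth, acid handling and mitochondrial turnover, and also Egln genes, which closes a feedback loop. Because the alpha subunits are controlled mainly as proteins, their mRNA is not a direct measure of the pathway, and its targets are commonly used as a readout. Erythropoietin, a hormone made mostly in the kidney under Epas1, acts through Epor, which signals by Jak2 and Stat5, and kidney disease commonly lowers its production.

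HIF binds DNA at a short core, so the letters ACGTG and GCGTG were searched on both strands in the 250 bases before each RefSeq start site (build GRCm38.p6). Of the 10 genes, 9 were matched in the RefSeq promoter table, and Epas1 was not. At least 1 match was found for 8 of these 9, Epor being the exception, compared with 38.6% of all 32851 promoters of the same length. ACGTG alone was present in the same number, 8 of 9, against 16.6% of all promoters. CACGTG, the E-box that clock proteins also bind and that contains ACGTG on both strands, was present in Hif1a and Bnip3, against 6.02% of all promoters. Of the 2 start sites listed for Vegfa, 1 had 2 matches and the other had none. Vegfa is counted as matched above, because genes were counted by any start site. The shares of all promoters count each start site singly. A match describes these letters and not a bound site. The sequences of Ankrd37, Bnip3 and Egln3 are shown because these 3 genes had the smallest p-values in the comparisons below. Each runs 5′ to 3′ on the gene's strand (the minus strand for all 3), starts 250 bases before the start site, leaves out annotated exons, and has the matches to ACGTG or GCGTG on either strand in capitals, so that they read CACGT or CACGC where they lie on the other strand.
Ankrd37, chr8:45999868-46000100: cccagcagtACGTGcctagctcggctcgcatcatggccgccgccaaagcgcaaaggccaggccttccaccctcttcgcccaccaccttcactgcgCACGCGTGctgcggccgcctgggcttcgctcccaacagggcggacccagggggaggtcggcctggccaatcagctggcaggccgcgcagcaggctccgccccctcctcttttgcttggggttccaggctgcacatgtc
Bnip3, chr7:138909520-138909756: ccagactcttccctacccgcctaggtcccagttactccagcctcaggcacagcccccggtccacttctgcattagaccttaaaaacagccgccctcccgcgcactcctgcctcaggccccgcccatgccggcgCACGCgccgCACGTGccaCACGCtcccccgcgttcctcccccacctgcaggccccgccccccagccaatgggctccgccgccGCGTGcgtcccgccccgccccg
Egln3, chr12:54203875-54204124: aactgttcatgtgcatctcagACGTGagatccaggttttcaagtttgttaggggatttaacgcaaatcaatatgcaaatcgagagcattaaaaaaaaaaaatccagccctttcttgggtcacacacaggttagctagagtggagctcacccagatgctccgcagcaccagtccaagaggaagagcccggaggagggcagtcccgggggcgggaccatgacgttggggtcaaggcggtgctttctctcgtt
The Ankrd37 stretch held 3 matches, 2 of them overlapping, and a further match at position -6 relative to the start site lay in an annotated exon. In Bnip3 there were 5 matches, 2 of which form the CACGTG palindrome. The Egln3 stretch held 1 match, at position -229.

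Libraries held 19.8 to 65.38 M counts (M for mega), with a median of 38.11 M. Sham-Oxf replicate 1 had the lowest depth and detected 15879 genes, where the other 27 libraries detected 27128 to 33995. The share of counts from 7SL, a small cytoplasmic RNA, was 1.83% to 20.98%. It was 20.98% in CKD-vehicle replicate 3, 20.64% in CKD-Oxf replicate 4, 19.9% in sham-vehicle replicate 5 and 19.09% in CKD-vehicle replicate 2. CKD-Oxf replicate 4 detected 27128 genes, the fewest after sham-Oxf replicate 1. A clock score also moved with the groups. It is the mean log2 level of 10 genes of the Dbp and Per1 phase minus that of 4 genes of the Arntl phase. Each gene was first centred on its sham-vehicle mean. The medians of the score were -0.21 in sham-vehicle and 2.12 in sham-Oxf mice, and -1.62 in CKD-vehicle and 1.34 in CKD-Oxf mice. Every vehicle mouse had a number of at most 920, and every Oxf mouse one of at least 921. Each group's lowest-numbered mouse had its lowest clock score. Among sham-vehicle mice the score was -1.66 in mouse 901, 1.95 in mouse 909 and 1.36 in mouse 910. Gavage and mouse number therefore cannot be told apart, with or without the clock score in a fit. Any link of these numbers to the order of heart collection was not tested. Cardiomyocyte markers were present in every group (8 of 8 with counts, summed medians of 57760 to 74270 CPM). Red cell markers had summed medians of 17.6 to 34.1 CPM, and liver markers had 8.90 CPM in sham-vehicle and 11.0 in sham-Oxf mice, against 2.72 in CKD-vehicle and 7.42 in CKD-Oxf mice. Fibroblast markers (7 of 7 with counts) had summed medians of 700.4 CPM without and 447.8 with Oxf in sham mice, and of 664.0 without and 465.3 with Oxf in CKD mice. Atrial markers, in tissue labelled ventricular, had medians of 1361 and 940.9 CPM in sham and 2199 and 1303 CPM in CKD mice in the same order, and adipose markers 80.26, 20.98, 14.02 and 28.27 CPM. The ranges of these sums overlapped between the groups. In Oxf minus vehicle averaged over surgery, 1 of 7 fibroblast and 1 of 8 cardiomyocyte markers passed an edgeR adjusted p of 0.05, lower with Oxf. In that comparison 2 of 6 liver markers passed, higher with Oxf, and 0 of 6 atrial and 0 of 6 adipose markers passed. Of all genes 2.81% passed there. The part of these differences in the results below was not tested, except where a fit with the clock score or the 7SL share is given. In whole tissue, fewer cells of a type and less RNA per cell cannot be told apart.

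Levels are given as CPM, counts scaled to sequencing depth after TMM factors, and between genes only as CPM per kilobase of exon. By this measure Epas1 (81.2 ± 14.8, SD, n = 28) and Vegfa (79.5 ± 19.5) were at the top, and Epas1 was above Vegfa in 13 of 28 libraries. Egln1 followed at 31.6 ± 9.51, Bnip3 at 10.2 ± 4.72, Hif1a at 7.86 ± 1.05 and Egln3 at 5.24 ± 1.95. The lower end held Slc2a1 at 2.68 ± 0.55, Ankrd37 at 1.92 ± 0.61, Car9 at 0.956 ± 0.461 and Epor at 0.355 ± 0.146 CPM per kilobase. The ranges of all neighbours in this order overlapped, although Egln1 was above Bnip3 in 28 of 28 libraries and Vegfa above Egln1 in 27 of 28. The mRNA of Epas1, encoding HIF-2 alpha, was thus more abundant per length than that of Hif1a in ventricular myocardium. Among sham-vehicle mice the coefficient of variation of CPM was 9.69% for Hif1a, 19.0% for Epas1 and 41.2%, 46.8% and 49.1% for Egln3, Bnip3 and Car9.

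**Figure D1:**
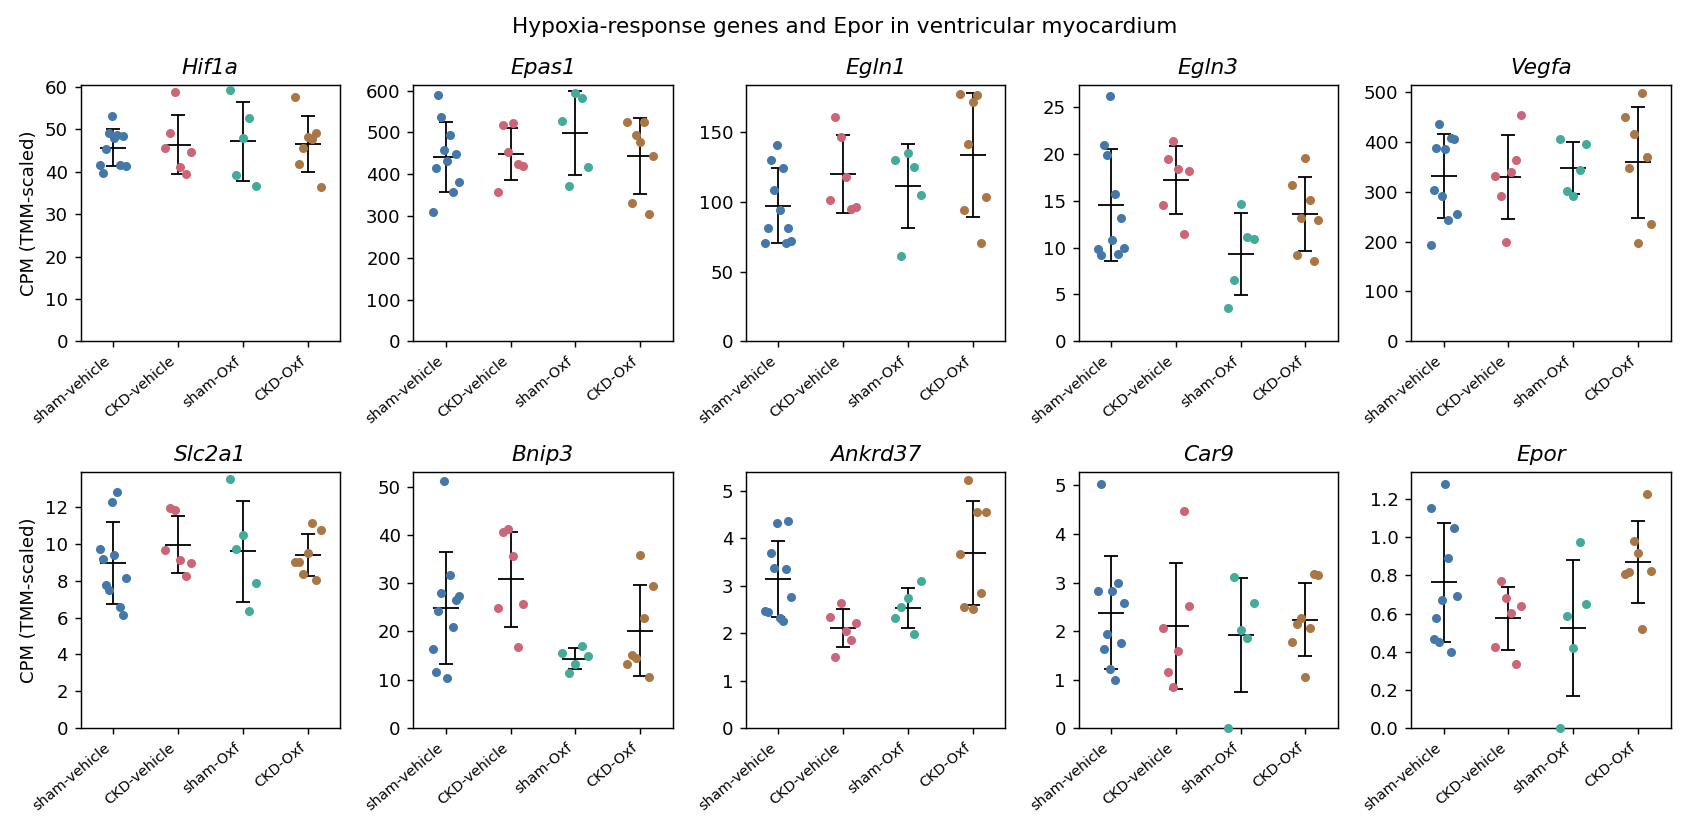
Level of each of the 10 genes in CPM (TMM-scaled, axis from 0) for every library in the 4 groups, with points for mice and black bars for the mean ± SD (n = 10, 6, 5 and 7). Ankrd37 is lowest in CKD-vehicle (1.50 to 2.64 CPM), Bnip3 is low in sham-Oxf (11.3 to 17.0 CPM), and the points at 0 for Car9 and Epor are sham-Oxf replicate 1.

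All 10 genes passed the filter on low counts, and 0 of 10 passed an edgeR adjusted p of 0.05 in any of the 7 comparisons. Few genes of the whole table did so in most of them: 0.00824% of 24273 in CKD-vehicle minus sham-vehicle, 0.033% in CKD-Oxf minus CKD-vehicle, and 0.0% in sham-Oxf minus sham-vehicle, in CKD-Oxf minus sham-Oxf, in CKD minus sham averaged over gavage (the surgery effect) and in the interaction. The exception was Oxf minus vehicle averaged over surgery (the gavage effect), with 2.81%. Of the 70 values for the 10 genes, 9 had an unadjusted p under 0.05, and these were 4 for Ankrd37, 3 for Bnip3 and 2 for Egln3. By comparison, they were 1 of 10 genes in CKD-vehicle minus sham-vehicle, 2 of 10 in CKD-Oxf minus CKD-vehicle, 2 of 10 in sham-Oxf minus sham-vehicle, 1 of 10 in CKD-Oxf minus sham-Oxf, 2 of 10 in the gavage effect, 0 of 10 in the surgery effect and 1 of 10 in the interaction. Over all genes the shares with an unadjusted p under 0.05 were 4.46%, 13.1%, 12.6%, 8.23%, 23.0%, 10.6% and 3.55% in the same order. The median log2 difference of the 10 genes was 0.24 in CKD-Oxf minus sham-Oxf (0.047 over all genes), -0.12 in sham-Oxf minus sham-vehicle (-0.043) and 0.11 in the interaction (0.069). It was 0.023 in CKD-vehicle minus sham-vehicle (-0.035), 0.046 in CKD-Oxf minus CKD-vehicle (0.029), 0.034 in the gavage effect (0.003) and 0.042 in the surgery effect (-0.001). DESeq2 called 1 of the 10 in CKD-Oxf minus CKD-vehicle (0.783% of all genes) and 1 in the gavage effect (8.79%). Limma voom called 2 (15.0%) and 1 (22.0%) in these comparisons, and both tools called 0 in the other comparisons.

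**Figure D2:**
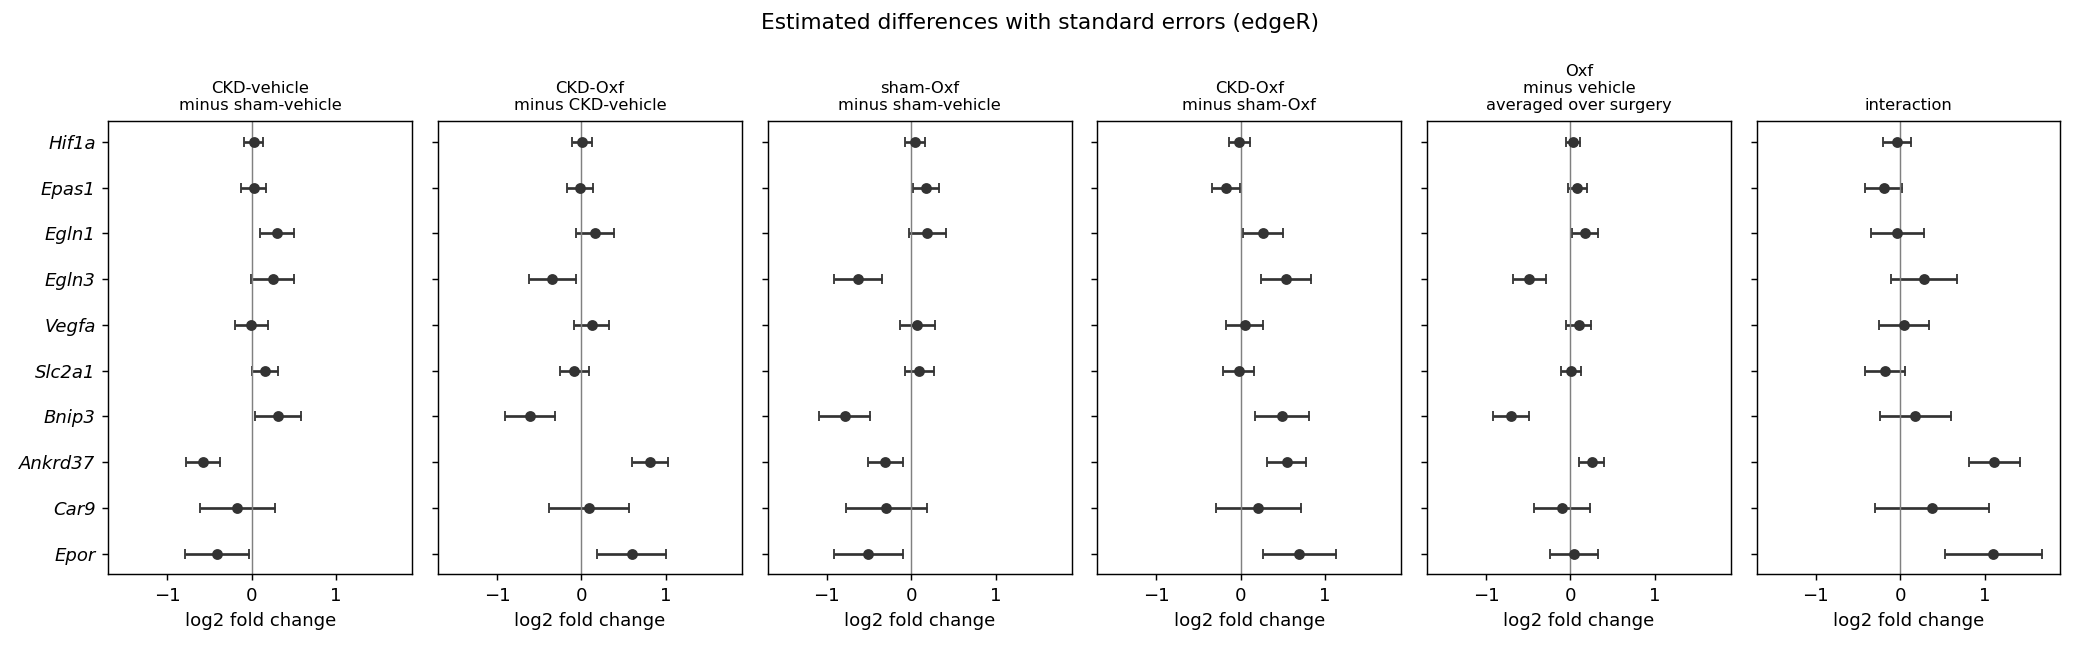
Log2 fold changes of the 10 genes in 6 of the 7 comparisons (points) with standard errors (bars), from 1 edgeR fit to 28 libraries. Hif1a, Epas1, Vegfa and Slc2a1 lie near 0 throughout, Ankrd37 lies at -0.58 in CKD-vehicle minus sham-vehicle and 0.81 in CKD-Oxf minus CKD-vehicle, and no value passed an adjusted p of 0.05.

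Among sham-vehicle mice the HIF alpha subunits had the smallest coefficients of variation of the 10 genes, and neither passed in any comparison. Hif1a, the subunit found in most cell types, ranged from 39.7 through a median of 46.6 to 53.0 CPM in sham-vehicle, from 39.4 through 45.1 to 58.7 in CKD-vehicle, and from 36.5 through 47.7 to 57.6 in CKD-Oxf. In sham-Oxf the 5 values were 59.3, 39.2, 47.8, 52.7 and 36.7 CPM. The 4 groups overlapped over nearly their whole range. The largest log2 difference of Hif1a in the 7 comparisons was 0.046 ± 0.117 (SE, sham-Oxf minus sham-vehicle, edgeR adjusted p 0.911). Epas1, the subunit prominent in endothelium and the main regulator of erythropoietin, had medians of 439.4 CPM (309.1 to 590.0) in sham-vehicle and 527.6 (371.5 to 595.2) in sham-Oxf mice, and of 437.9 (356.9 to 521.8) in CKD-vehicle and 477.9 (305.1 to 525.9) in CKD-Oxf mice. Its largest difference, the interaction, was -0.19 ± 0.22 (SE, edgeR adjusted p 1.0). Reads of Hif1a could be mixed with those of the antisense gene Gm15283 and the overlapping Gm49321, since the use of strand in counting is not given in the sources used here.

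Of the prolyl hydroxylases, which modify the alpha subunits, Egln1 and Egln3 passed in no comparison, and Egln2 is described with the pathway list below. Egln1, the main oxygen sensor of the family, had medians of 87.7 CPM (70.2 to 141.0) in sham-vehicle and 125.2 (61.5 to 135.3) in sham-Oxf mice, and of 109.6 (94.8 to 160.8) in CKD-vehicle and 141.5 (70.3 to 177.4) in CKD-Oxf mice. The groups overlapped, with all 6 CKD-vehicle mice above the sham-vehicle median. The estimate was 0.30 ± 0.21 (SE) in CKD-vehicle minus sham-vehicle (edgeR adjusted p 0.955) and 0.28 ± 0.16 for the surgery effect (edgeR adjusted p 0.52). Adding the clock score to the fit gave Egln1 values of 0.024 ± 0.246 and 0.084 ± 0.183, and with the 7SL share 0.20 ± 0.17 and 0.096 ± 0.137. The gavage effect was 0.18 ± 0.16 (edgeR adjusted p 0.537), against 0.56 ± 0.25 with the clock score (adjusted p 0.655) and 0.41 ± 0.14 with the 7SL share (unadjusted p 0.00764, adjusted p 0.161).

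Egln3, the family member most strongly induced by HIF, ranged from 9.25 through 12.0 to 26.2 CPM in sham-vehicle, from 11.4 through 18.3 to 21.4 in CKD-vehicle and from 8.57 through 13.1 to 19.6 in CKD-Oxf. In sham-Oxf it was at 3.51, 6.53, 14.7, 11.1 and 10.9 CPM. Both lowest libraries of all 28 were sham-Oxf mice, and the ranges overlapped. The lowest, with 74 counts, was sham-Oxf replicate 1, the library with the lowest depth and the fewest genes detected. The gavage effect was -0.49 ± 0.20 on the log2 scale (SE, edgeR unadjusted p 0.0184, adjusted p 0.136), and sham-Oxf minus sham-vehicle was -0.63 ± 0.28 (adjusted p 0.345). Without sham-Oxf replicate 1 and CKD-Oxf replicate 4, sham-Oxf minus sham-vehicle was -0.427 ± 0.265 (edgeR adjusted p 0.517). With all libraries, CKD-Oxf minus CKD-vehicle was -0.35 ± 0.27 (edgeR adjusted p 0.593), with 6 of 7 CKD-Oxf mice below the CKD-vehicle median. Of the 37 alternatives for the gavage effect 0 passed, with values of -0.60 to -0.20 and adjusted p from 0.0506 to 0.818. The smallest size, -0.20 ± 0.21, came with the 7SL share as a covariate.

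Among the HIF targets, Ankrd37 had the smallest unadjusted p-values. It encodes an ankyrin repeat protein and is a widely used hypoxia marker gene. In CKD-vehicle it ranged from 1.50 through a median of 2.14 to 2.64 CPM, and in sham-vehicle from 2.26 through 3.06 to 4.36. In sham-Oxf the values were 2.32, 2.54, 2.75, 1.97 and 3.10 CPM, and in CKD-Oxf they ran from 2.51 through 3.67 to 5.22. All 6 CKD-vehicle mice lay below the sham-vehicle median, and all 7 CKD-Oxf mice lay above the CKD-vehicle median. The CKD-Oxf and CKD-vehicle ranges overlapped only between 2.51 and 2.64 CPM. These levels rest on 49 to 233 counts per library.

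The estimate for Ankrd37 in CKD-Oxf minus CKD-vehicle was 0.81 ± 0.22 on the log2 scale (SE), a fold of 1.76 (edgeR unadjusted p 0.000714, adjusted p 0.191). It was -0.58 ± 0.20 in CKD-vehicle minus sham-vehicle (edgeR unadjusted p 0.00772, adjusted p 0.955). These comparisons share the CKD-vehicle mice. With Oxf, CKD minus sham gave 0.54 ± 0.23 (edgeR adjusted p 0.487), where 6 of 7 CKD-Oxf mice lay above the sham-Oxf median. The interaction, the difference between the CKD changes with and without Oxf, was 1.12 ± 0.30 (edgeR unadjusted p 0.000918, adjusted p 1.0), and 0 of 37 alternatives passed (0.96 to 1.21, adjusted p 0.229 to 1.0).

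The call for Ankrd37 in CKD-Oxf minus CKD-vehicle depended on the tool and on 1 library. It passed in 4 of 23 alternatives, whose values ran from 0.62 to 0.89 with adjusted p from 0.0102 to 1.0. These were DESeq2 (adjusted p 0.0195, with 0.783% of all genes called), limma voom (0.0102, 15.0%), edgeR without CKD-Oxf replicate 4 (0.0358, 3.83%) and edgeR without that library and sham-Oxf replicate 1 (0.0202, 8.86%). With the clock score as covariate the estimate was 0.62 ± 0.32 (edgeR adjusted p 1.0), and with the 7SL share it was 0.88 ± 0.22 (adjusted p 0.12). Ankrd37 overlaps Ufsp2 and Lrp2bp on the other strand, so reads of these genes may be included.

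Bnip3, a mitochondrial receptor that directs mitochondria to autophagy, had its lowest group values in the Oxf mice. It ranged from 10.5 through a median of 25.4 to 51.0 CPM in sham-vehicle, from 16.8 through 30.7 to 41.1 in CKD-vehicle and from 10.7 through 15.0 to 35.9 in CKD-Oxf. In sham-Oxf the values were 15.5, 11.3, 13.2, 17.0 and 14.9 CPM. All 5 sham-Oxf mice lay below the sham-vehicle median and 6 of 7 CKD-Oxf mice below the CKD-vehicle median, with overlapping ranges in both. The gavage effect was -0.70 ± 0.21 on the log2 scale (SE), a fold of 0.616 (edgeR unadjusted p 0.00267, adjusted p 0.0623). By surgery it was -0.79 ± 0.31 in sham (edgeR adjusted p 0.287) and -0.61 ± 0.30 in CKD (adjusted p 0.38), and the interaction was 0.18 ± 0.42 (adjusted p 1.0).

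Of 37 alternatives for the gavage effect of Bnip3, 8 passed, with values of -0.85 to -0.28 and adjusted p from 0.00882 to 0.642. They were DESeq2 (adjusted p 0.0197, 8.79% of all genes called), limma voom (0.00882, 22.0%), a filter that asks every library for at least 10 counts (0.0379, 10.1%), and edgeR without sham-Oxf replicate 1 and CKD-Oxf replicate 4 (0.0158, 19.1%). The others were edgeR without sham-vehicle replicate 2 (0.0406, 4.09%), sham-vehicle replicate 6 (0.0364, 4.82%), CKD-vehicle replicate 5 (0.0311, 7.83%) or CKD-Oxf replicate 4 (0.0116, 13.9%). Limma voom also called Bnip3 in CKD-Oxf minus CKD-vehicle (-0.82, adjusted p 0.0314, 15.0%). With the 7SL share as covariate the gavage effect was -0.28 ± 0.19 (edgeR adjusted p 0.45), and with the clock score -0.85 ± 0.37 (adjusted p 0.642). Reads of Bnip3 may be mixed with those of the antisense gene Gm45507 and the pseudogene Gm18258.

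For the other HIF targets no comparison passed. Vegfa, the vascular growth factor, had medians of 345.0 and 342.8 CPM in sham mice without and with Oxf and of 336.2 and 368.8 CPM in CKD mice without and with Oxf, and every group overlapped the others within 192.3 to 499.0 CPM. Its largest difference was 0.12 ± 0.21 (SE, CKD-Oxf minus CKD-vehicle, edgeR adjusted p 0.842). Slc2a1, the basal glucose transporter GLUT1, had medians of 8.65, 9.73, 9.39 and 9.05 CPM in the same order and its largest difference was -0.18 ± 0.24 (interaction, edgeR adjusted p 1.0). Car9, a membrane carbonic anhydrase that handles acid outside the cell, had medians of 2.26, 2.03, 1.83 and 2.15 CPM with 0 to 187 counts per library. Its largest difference was 0.38 ± 0.67 (interaction, edgeR adjusted p 1.0). In sham-Oxf replicate 1 Car9 had 0 counts, which allows up to 0.142 CPM (3 counts, for counting error only), while the other sham-Oxf mice had 1.86 to 3.11 CPM.

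Epor, the receptor of erythropoietin, was the least abundant per length, with 0 to 62 counts per library. Its level ranged from 0.401 through a median of 0.680 to 1.28 CPM in sham-vehicle, from 0.334 through 0.620 to 0.772 in CKD-vehicle and from 0.518 through 0.821 to 1.22 in CKD-Oxf. In sham-Oxf it was at 0 counts (up to 0.142 CPM allowed), 0.585, 0.418, 0.973 and 0.651 CPM. The groups overlapped, and 6 of 7 CKD-Oxf mice lay above the CKD-vehicle median. CKD-Oxf minus CKD-vehicle was 0.60 ± 0.41 on the log2 scale (SE, edgeR adjusted p 0.532) and the interaction was 1.11 ± 0.58 (unadjusted p 0.0657, adjusted p 1.0). Without sham-Oxf replicate 1 and CKD-Oxf replicate 4 the interaction was 0.81 ± 0.42 (edgeR adjusted p 0.998). Epo itself had 2 counts in all, in 1 of 28 libraries, and was not tested. The summed level of 10 red cell markers ran from 6.28 to 139.4 CPM over the libraries with overlapping groups, and its part in the Epor values was not tested.

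A further list of 53 genes of the HIF pathway (regulators, ligase subunits and targets) had 51 genes tested, Epo and Car12 being too low. In the 6 comparisons other than the gavage effect, 0 of 51 passed with edgeR. An unadjusted p under 0.05 was found for 6 of 51 in CKD-vehicle minus sham-vehicle (4.46% of all genes), 13 in CKD-Oxf minus CKD-vehicle (13.1%), 9 in sham-Oxf minus sham-vehicle (12.6%), 4 in CKD-Oxf minus sham-Oxf (8.23%), 8 in the surgery effect (10.6%) and 1 in the interaction (3.55%). DESeq2 called up to 1 of 51 in these comparisons, in sham-Oxf minus sham-vehicle, where it called 131 of 24273 genes. Limma voom called up to 15 of 51, in CKD-Oxf minus CKD-vehicle, where it called 15.0% of all genes. In the gavage effect 6 of 51 were higher and 13 lower at an edgeR unadjusted p under 0.05, beside 23.0% of all genes. DESeq2 called 10 of 51 there (8.79% of all genes) and limma voom 18 of 51 (22.0%). Past an edgeR adjusted p of 0.05, 1 gene rose and 3 fell in the gavage effect, that is 4 of 51 beside 2.81% of all genes. The median was -0.10 beside 0.003 over all genes. Egln2, the third prolyl hydroxylase, rose by 0.38 ± 0.08 (SE, edgeR adjusted p 0.014), from 25.0 ± 2.04 (SD) to 34.0 ± 6.07 CPM in sham and from 26.4 ± 2.40 to 32.7 ± 4.59 in CKD mice. All 12 Oxf mice lay above the vehicle median of their surgery group. This call was made in 35 of 37 alternatives and in 28 of 28 fits that left out 1 library. The value was 0.52 ± 0.12 with the clock score as covariate, where it did not pass (adjusted p 0.301), and 0.46 with the 7SL share (adjusted p 0.00551).

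Of the 3 genes that passed and fell, Cul2 and Eloc encode subunits of the von Hippel-Lindau ubiquitin ligase. Tfrc encodes the transferrin receptor that takes up iron. Cul2 had -0.57 ± 0.15 (SE, edgeR adjusted p 0.04), with 16.3 ± 4.62 CPM (SD) without and 10.3 ± 2.95 with Oxf in sham mice, and 20.1 ± 5.35 without and 14.4 ± 3.67 with Oxf in CKD mice. Eloc had -0.50 ± 0.14 (adjusted p 0.0498), at 9.35, 7.11, 11.5 and 7.55 CPM in the same order. Tfrc had -0.68 ± 0.16 (adjusted p 0.0327), at 25.0, 17.1, 37.2 and 21.3 CPM. For each of these 3 genes 11 of 12 Oxf mice lay below the vehicle median of their surgery group. The calls were less stable than that of Egln2: Tfrc passed in 26 of 37 alternatives, Cul2 in 19 and Eloc in 14. With the clock score as covariate the values were -0.12 for Tfrc, -0.48 for Cul2 and -0.25 for Eloc (edgeR adjusted p 0.916, 0.694 and 0.814), and with the 7SL share -0.45, -0.32 and -0.29 (adjusted p 0.148, 0.268 and 0.288).

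The 3 smallest p-values of the pathway list in each of the other comparisons did not pass. In sham-Oxf minus sham-vehicle they were Egln2 (0.45 ± 0.10, SE, edgeR unadjusted p 0.000193, adjusted p 0.131), Cul2 (-0.66, adjusted p 0.221) and Angpt2 (-0.52, adjusted p 0.272). They were Bhlhe40, Tfrc and P4ha1 in CKD-vehicle minus sham-vehicle, Bhlhe40, Tfrc and Eloc in CKD-Oxf minus CKD-vehicle, and P4ha1, Hk1 and Tfrc in the surgery effect. In CKD-Oxf minus sham-Oxf they were Mxi1 (0.34), Angpt1 (0.71) and Slc2a3 (0.82), with edgeR adjusted p of 0.492 to 0.548. Mxi1, Slc2a3 and Pfkfb4 had the smallest in the interaction, each with an edgeR adjusted p of 1.0. Bhlhe40, a transcription repressor that belongs both to hypoxia targets and to the clock, had -0.38 ± 0.12 in CKD-vehicle minus sham-vehicle and 0.46 ± 0.13 in CKD-Oxf minus CKD-vehicle (SE, edgeR adjusted p 0.955 and 0.196). P4ha1, a collagen prolyl hydroxylase, had -0.45 ± 0.15 in the surgery effect (adjusted p 0.309). Of 18 genes of Epor signalling, 17 were tested. Cish, a feedback inhibitor induced by Stat5, passed in CKD-vehicle minus sham-vehicle (0.82 ± 0.14, edgeR adjusted p 0.0261), in 10 of 26 alternatives and in 2 of 16 fits that left out 1 library. Among all 24273 genes, edgeR called 2 in CKD-vehicle minus sham-vehicle. Adding the clock score kept the size of the Cish estimate at 0.78 ± 0.18 but lost the call (adjusted p 0.791). Adding the 7SL share instead gave 0.777 and kept the call (adjusted p 0.00704). Sh2b3, an adaptor that restrains Jak2, rose in the gavage effect by 0.43 ± 0.11 (edgeR adjusted p 0.0351), with 12 of 12 Oxf mice above the vehicle median. It passed in 19 of 37 alternatives, and the value was 0.27 with the clock score as covariate (adjusted p 0.743) and 0.29 with the 7SL share (adjusted p 0.148). The remaining 15 genes of the list passed in none of the 7 edgeR comparisons. The list had 5 of 17 genes at an unadjusted p under 0.05 in each of CKD-Oxf minus CKD-vehicle, the gavage effect and the surgery effect, beside 13.1%, 23.0% and 10.6% of all genes, and fewer in the others. In the gavage effect edgeR called 1 of 17 (2.81% of all genes), DESeq2 3 of 17 (8.79%) and limma voom 7 of 17 (22.0%). In CKD-Oxf minus CKD-vehicle DESeq2 called 1 of 17 (0.783%) and limma voom 5 of 17 (15.0%).

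The 10 genes did not vary as a single group between mice. Over the 28 libraries, with each group's mean removed, Spearman's rho of log2 CPM was highest for Epas1 with Egln1 (0.82), then Egln1 with Egln3 (0.75) and Epas1 with Egln3 (0.69). It was lowest for Hif1a with Car9 (-0.68), Egln1 with Car9 (-0.63) and Bnip3 with Car9 (-0.59). Libraries share depth and 7SL share, and rho with the log2 7SL share was 0.61 for Egln1, 0.61 for Bnip3, 0.52 for Hif1a and -0.86 for Car9, beside 0.15 for Ankrd37 and 0.065 for Vegfa. The genes most like each member in this measure were Retreg1 (0.91), Mcl1 (0.89) and Zfand5 (0.88) for Bnip3, Kif23 (0.66), Plcb4 (0.62) and Med8 (0.62) for Ankrd37, and Mmadhc (0.92), Mrrf (0.92) and RP23-48P22.4 (0.92) for Egln3. For Egln1 they were Macrod1 (0.94), Eif3b (0.94) and Ctbp1 (0.94), for Vegfa Slk (0.92), Myh7b (0.89) and Scarf1 (0.89), and for Slc2a1 Pld3 (0.89), Rab3d (0.82) and Ckap4 (0.82). Hif1a had Tomm40l (0.82), Nmd3 (0.81) and Lmod3 (0.80), and Epas1 had RP24-535N4.2 (0.86), Got2-ps1 (0.86) and Inpp5a (0.85). Car9 had Gapdhs (0.96), Ndor1 (0.94) and Prr33 (0.94), and Epor had Zfp964 (0.77), Homez (0.75) and Wdyhv1 (0.72).

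**Figure D3:**
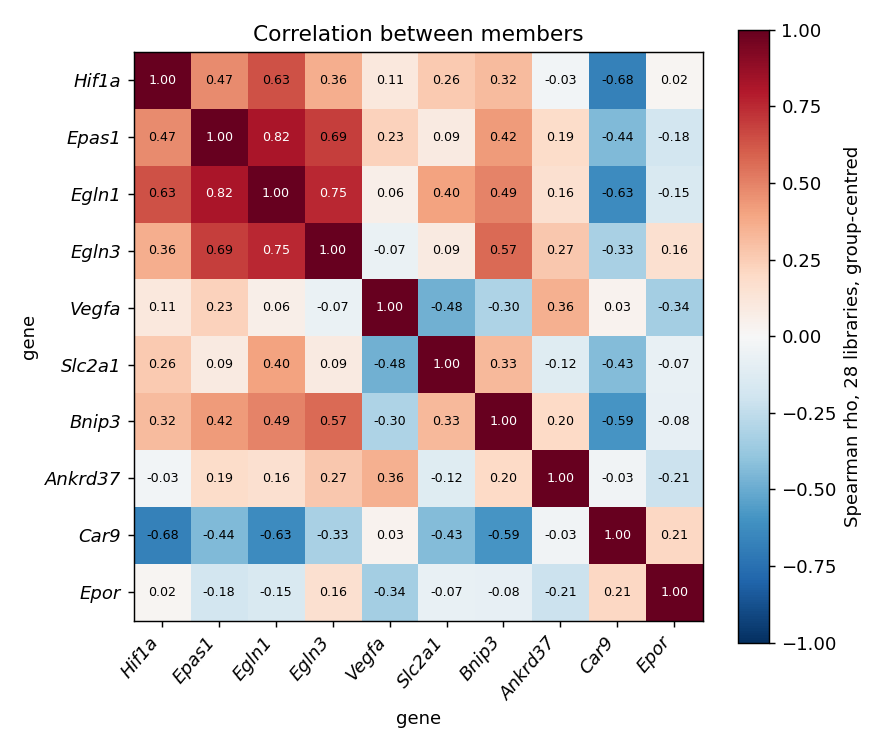
Spearman's rho between the 10 genes over 28 libraries, from log2 CPM with each group's mean removed (colour scale from -1 to 1). Epas1, Egln1 and Egln3 form the block of high values (0.69 to 0.82), and Car9 is negative with Hif1a, Egln1 and Bnip3 (-0.68 to -0.59).

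The relation of each gene to the clock score and to the 7SL share was computed within sham-vehicle, CKD-vehicle and CKD-Oxf, which have at least 6 mice, in 60 relations. Permutation p-values of Pearson's r were adjusted over these 60. None of the 30 relations with the clock score had an unadjusted p under 0.05, and that of Ankrd37 in CKD-vehicle was -0.021 (rho -0.26, exact permutation p 0.96 and 0.658, n = 6, adjusted 0.987 and 0.824, r 0.39 without the 2 farthest mice). With the 7SL share 4 relations passed with TMM factors and none of these 4 with upper quartile factors (adjusted p 0.0556 to 0.0625). Bnip3 had r of 0.85 in sham-vehicle (rho 0.71, permutation p 0.00197 and 0.0269, n = 10, adjusted 0.0394 and 0.2), which was 0.59 without the 2 farthest mice. In CKD-vehicle r was 0.94 for Bnip3 (rho 1.0, exact permutation p 0.00139 and 0.00278, n = 6, adjusted 0.0394 and 0.0834, r 0.999 without the 2 farthest mice). Egln3 in CKD-vehicle had r of 0.94 (rho 1.0, exact permutation p 0.00139 and 0.00278, n = 6, adjusted 0.0394 and 0.0834, r 0.78 without the 2 farthest mice). Car9 in CKD-vehicle had r of -0.91 (rho -0.94, exact permutation p 0.00278 and 0.0167, n = 6, adjusted 0.0417 and 0.167, r -0.93 without the 2 farthest mice). In CKD-Oxf the r of Bnip3 with the 7SL share was 0.39 (rho 0.57, exact permutation p 0.376 and 0.2, n = 7, adjusted 0.627 and 0.48, r 0.93 without the 2 farthest mice). The median share was 10.09% without and 2.70% with Oxf in sham mice, and 14.04% without and 7.73% with Oxf in CKD mice.

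**Figure D4:**
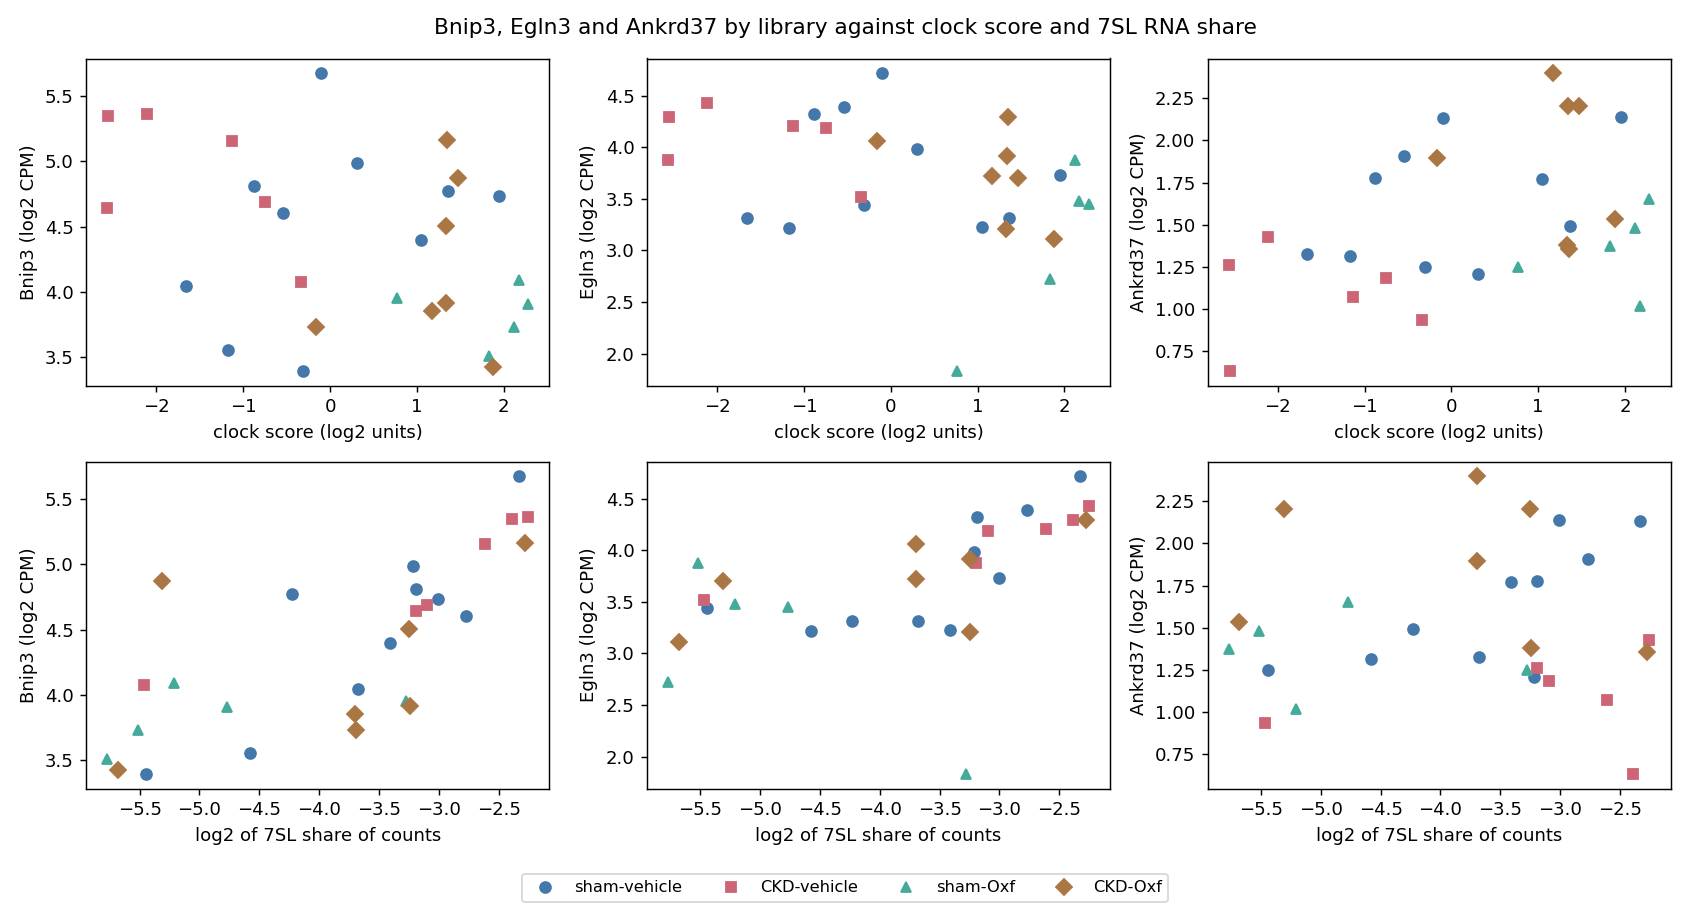
Log2 CPM of Bnip3, Egln3 and Ankrd37 in each library against the clock score (upper row, log2 units) and the log2 share of 7SL RNA among counts (lower row), with a colour and shape for each group. Bnip3 lies higher in vehicle libraries with a larger 7SL share (r 0.85 in sham-vehicle and 0.94 in CKD-vehicle, adjusted p 0.0394 with TMM and 0.0556 with upper quartile factors), and within groups the 3 genes show no relation to the clock score at an unadjusted p under 0.05.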

How the data were processed

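The 28 libraries are 1 per mouse, numbered within a group in accession order. The values are raw gene counts deposited by the authors in 1 table. Reads were processed with STAR 2.6.1d and featureCounts 1.6.3 on mm10, with FastQC 0.11.7 and MultiQC 1.9, per the submitters' processing notes. Annotation, use of strand and treatment of multimapping reads are not given in the sources used here. Of 45513 rows, 45465 were found by identifier in GENCODE M21 (GRCm38), which gave exon lengths and overlaps. Counts were tested with edgeR 4.0.16 in R 4.3.3 (TMM, filterByExpr with a minimum count of 10, robust quasi-likelihood fit of 4 group means over all libraries). SE is |log2 fold change| over the root of F. In the main fit adjusted p-values are Benjamini-Hochberg values over 24273 genes, with a threshold of 0.05. Alternatives with other libraries or filters were adjusted over the genes tested in each. DESeq2 adjusted p-values follow its default filter on mean counts. Log2 CPM used a prior count of 2. Within a group of 10, permutation tests were two-sided with 100000 draws, and smaller groups were enumerated exactly. The 7SL share sums Rn7s1 and Rn7s2. The fits were tested on simulated data.

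The 10 genes, the gene lists and the comparisons were chosen with earlier results of these data known. Named were all 10 genes, the genes of a list that passed (at most 10 per list and comparison), otherwise the 3 pathway genes with the smallest p, and the 3 genes most like each member (mean of at least 1 log2 CPM). Alternatives were DESeq2 1.42.0, limma 3.58.1 voom with sample weights, DESeq2 or upper quartile scaling, no filter on counts, a filter of at least 10 counts in each library, the compared groups only, the clock score or 7SL share as covariate, and each library left out. Leaving out sham-Oxf replicate 1 and CKD-Oxf replicate 4 together, and the relations with the 7SL share, were chosen after seeing the data. CKD-vehicle replicate 3 had a larger 7SL share than CKD-Oxf replicate 4 and was kept in that fit. The labels do not state whether mice shared cages or litters.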

Additional observations from a re-analysis of the deposited data

Results flagged for a closer look

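Among 40 combinations of the 10 genes and 4 groups, 2 had a library set apart from its group, and chance gives about 1 in 20 such cases. Both were sham-Oxf replicate 1. For Epor its 0 counts lay below 0.418 to 0.973 CPM in the other sham-Oxf mice, and the gap to the nearest took a share of 0.741 of the group's range on the log2 scale. For Car9 its 0 counts lay below 1.86 to 3.11 CPM, with a gap share of 0.88. At 0 counts the log2 level is set by the prior count of 2, so both gap shares depend on that choice. That library had the lowest depth and listed 15879 genes with a count, against at least 27128 in each of the other 27.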

How the results depend on the processing

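No member passed in 5 of the 7 comparisons under any alternative. In CKD-Oxf minus CKD-vehicle the number of members past the threshold was 1 with DESeq2 (0.783% of all genes) and 2 with limma voom (15.0%). It was 1 without sham-Oxf replicate 1 and CKD-Oxf replicate 4 (8.86%), and 0 to 1 when 1 library was left out (0 to 927 of all genes). In the gavage effect it was 1 with DESeq2 (8.79%), 1 with limma voom (22.0%) and 1 with at least 10 counts in every library (10.1%). It was 1 without those 2 libraries (19.1%), and 0 to 1 when 1 library was left out. Over all genes, the number called in the gavage effect was 681, with 0 (clock score as covariate) to 5336 (limma voom) under the alternatives and 109 to 3362 when 1 library was left out. In CKD-Oxf minus CKD-vehicle it was 8, with 0 to 3639, and in CKD-vehicle minus sham-vehicle 2, with 0 to 93. It was 0 in sham-Oxf minus sham-vehicle (0 to 141), in CKD-Oxf minus sham-Oxf (0 to 100), in the surgery effect (0 to 126) and in the interaction (0 under every alternative). The cause of these changes was not tested. The filter of at least 10 counts in every library removed Epor and Car9, which then had no value. Upper quartile factors took the 4 relations with the 7SL share above an adjusted p of 0.05. A prior count of 0.5 moved 0 of 40 mean log2 levels by more than 1 SD. Epor (0 to 62 counts per library) and Car9 (0 to 187) had the largest standard errors of the 10 genes. Ankrd37, with 49 to 233 counts, had a smaller one than Car9 (0.201 against 0.444 in CKD-vehicle minus sham-vehicle). The cause of these standard errors was not tested. No paired analysis was possible because the labels give no replicate numbers shared between groups.

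The sign changed in 196 of 2056 alternative fits of the members, all with an unadjusted p of at least 0.15, and in 0 of 255 fits of the 9 differences with an unadjusted p under 0.05. The values after a change, on the log2 scale, were as follows. With limma voom the log2 values were Hif1a -7.2e-05 and Vegfa 0.030 in CKD-vehicle minus sham-vehicle, then Hif1a -0.065 and Slc2a1 -0.016 in sham-Oxf minus sham-vehicle, then Hif1a 0.076 and Slc2a1 0.17 in CKD-Oxf minus sham-Oxf, then Hif1a -0.026, Slc2a1 -0.038 and Car9 0.15 in the gavage effect. It also gave Car9 -0.15 in the surgery effect, then Hif1a 0.076, Egln3 -0.24 and Bnip3 -0.24 in the interaction. Upper quartile factors gave Hif1a -0.011 and Epas1 -0.010 in CKD-vehicle minus sham-vehicle, then Vegfa -0.0068 in CKD-Oxf minus sham-Oxf, then Hif1a -0.040, Vegfa -0.022 and Car9 -0.020 in the surgery effect. Requiring at least 10 counts in every library gave Hif1a -0.0079 and Epas1 -0.0067 in CKD-vehicle minus sham-vehicle, then Hif1a -0.022 and Vegfa -0.0078 in the surgery effect. The clock score as covariate gave Hif1a -0.093, Epas1 -0.047, Vegfa 0.082, Slc2a1 -0.093 and Car9 0.0032 in CKD-vehicle minus sham-vehicle, then Epas1 0.10, Vegfa -0.027, Slc2a1 0.36 and Car9 -0.33 in CKD-Oxf minus CKD-vehicle, then Vegfa -0.028 in sham-Oxf minus sham-vehicle, then Vegfa -0.028 and Epor -0.12 in the gavage effect. This setting gave Hif1a -0.076, Slc2a1 -0.10 and Ankrd37 0.065 in the surgery effect, then Hif1a 0.033 and Egln1 0.12 in the interaction. The 7SL share as covariate gave Hif1a -0.018 and Epas1 -0.016 in CKD-vehicle minus sham-vehicle, then Epas1 0.047 and Car9 -0.23 in CKD-Oxf minus CKD-vehicle, then Egln1 -0.0066 in CKD-Oxf minus sham-Oxf, then Epor -0.11 in the gavage effect. Further values were Hif1a -0.059 in the surgery effect, then Bnip3 -0.064 in the interaction. No low count filter gave Vegfa 0.0046 in CKD-vehicle minus sham-vehicle, then Hif1a -0.016 in CKD-Oxf minus CKD-vehicle, then Slc2a1 -0.018 in the gavage effect. A fit of only the groups compared gave Vegfa 0.009 in CKD-vehicle minus sham-vehicle. Without sham-Oxf replicate 1 and CKD-Oxf replicate 4 the log2 values were Hif1a -0.0024 in CKD-Oxf minus CKD-vehicle, then Hif1a -0.051, Slc2a1 -0.058 and Car9 0.017 in sham-Oxf minus sham-vehicle, then Hif1a 0.072 and Slc2a1 0.13 in CKD-Oxf minus sham-Oxf, then Hif1a -0.026, Slc2a1 -0.072 and Car9 0.11 in the gavage effect. It also gave Epor -0.013, Ankrd37 0.0064 and Car9 -0.073 in the surgery effect, then Hif1a 0.048 and Egln3 -0.028 in the interaction. DESeq2 gave Hif1a -0.012 and Car9 -0.0033 in the surgery effect. DESeq2 size factors in edgeR gave Hif1a -0.013 and Car9 -0.0048 in the surgery effect. With upper quartile factors, Pearson r was 0.094 (Ankrd37 with the clock score in CKD-vehicle), -0.057 (Vegfa with the log2 7SL share in sham-vehicle), -0.14 (Slc2a1 with the log2 7SL share in sham-vehicle) and -0.048 (Slc2a1 with the log2 7SL share in CKD-Oxf).

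When 1 library was left out, the values that changed sign had these ranges. Hif1a ranged from -0.091 to 0.065 in CKD-vehicle minus sham-vehicle, -0.039 to 0.089 in CKD-Oxf minus CKD-vehicle, -0.051 to 0.12 in sham-Oxf minus sham-vehicle, -0.094 to 0.079 in CKD-Oxf minus sham-Oxf, -0.023 to 0.064 in the gavage effect, -0.060 to 0.051 in the surgery effect and -0.12 to 0.062 in the interaction. Epas1 ranged from -0.049 to 0.080 in CKD-vehicle minus sham-vehicle and -0.075 to 0.056 in CKD-Oxf minus CKD-vehicle. Vegfa ranged from -0.12 to 0.072 in CKD-vehicle minus sham-vehicle, -0.063 to 0.13 in CKD-Oxf minus sham-Oxf, -0.049 to 0.061 in the surgery effect and -0.046 to 0.17 in the interaction. Car9 ranged from -0.54 to 0.013 in CKD-vehicle minus sham-vehicle, -0.067 to 0.45 in CKD-Oxf minus CKD-vehicle, -0.53 to 0.016 in sham-Oxf minus sham-vehicle, -0.099 to 0.45 in CKD-Oxf minus sham-Oxf, -0.22 to 0.079 in the gavage effect and -0.17 to 0.14 in the surgery effect. Slc2a1 ranged from -0.058 to 0.21 in sham-Oxf minus sham-vehicle, -0.14 to 0.13 in CKD-Oxf minus sham-Oxf and -0.071 to 0.065 in the gavage effect. Epor ranged from -0.12 to 0.18 in the gavage effect and -0.0064 to 0.30 in the surgery effect. Ankrd37 ranged from -0.082 to 0.025 in the surgery effect. Egln1 ranged from -0.19 to 0.077 in the interaction. Bnip3 ranged from -0.0093 to 0.30 in the interaction.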
